A study of Bos taurus with 5 samples.

Results

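The circadian clock genes ARNTL, CLOCK, NPAS2, PER2, CRY1 and CIART were examined in cattle muscle, chosen by gene symbol: 6 of the 9022 genes and 12 of the 13391 transcripts in the deposited table. The material was longissimus dorsi, a back muscle, taken from 5 Jiaxian Red cattle of 18 months, 1 library per animal, so that the series holds 1 group and no treatment, genotype or control. The stated purpose of the series was to look for genes that bear on muscle development in the breed. Values are FPKM, a level per length of transcript and per size of library, added up here for each gene across its listed transcripts. The labels used here give neither the time of day at which muscle was taken nor the sex or feeding of the animals, and 5 muscles taken at unknown hours cannot show a rhythm.

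The molecular clock is a feedback loop of transcription that runs in nearly all cells, muscle fibres included. ARNTL, also called BMAL1, pairs with CLOCK or with its relative NPAS2, and the pair binds E-box sequences and switches on the genes of its own repressors. PER2 and CRY1 proteins return to the nucleus and block the pair, and CIART, also called CHRONO, is a further repressor that binds ARNTL. In animals kept on a daily cycle, the ARNTL transcript usually peaks at a phase opposite to those of the PER genes, while CLOCK varies little. In muscle the loop is known to time genes of fuel use and of the contractile apparatus.

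All 6 genes were above 1 FPKM in 5 of 5 libraries. NPAS2 was listed far above the others, at 124 ± 35.3 FPKM, and its value may hold reads of a neighbouring gene, as set out further on. CLOCK followed at 13.1 ± 1.84 FPKM, then CIART at 11.0 ± 2.99, PER2 at 8.70 ± 1.77, CRY1 at 5.41 ± 0.423 and ARNTL at 3.63 ± 1.25 (SD, n = 5). For scale, the median gene among the 6136 with a mean of at least 1 FPKM, called detected genes here, stood at 6.38 FPKM. CRY1 and ARNTL lay below that median, and the other 4 above it.

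**Figure D1:**
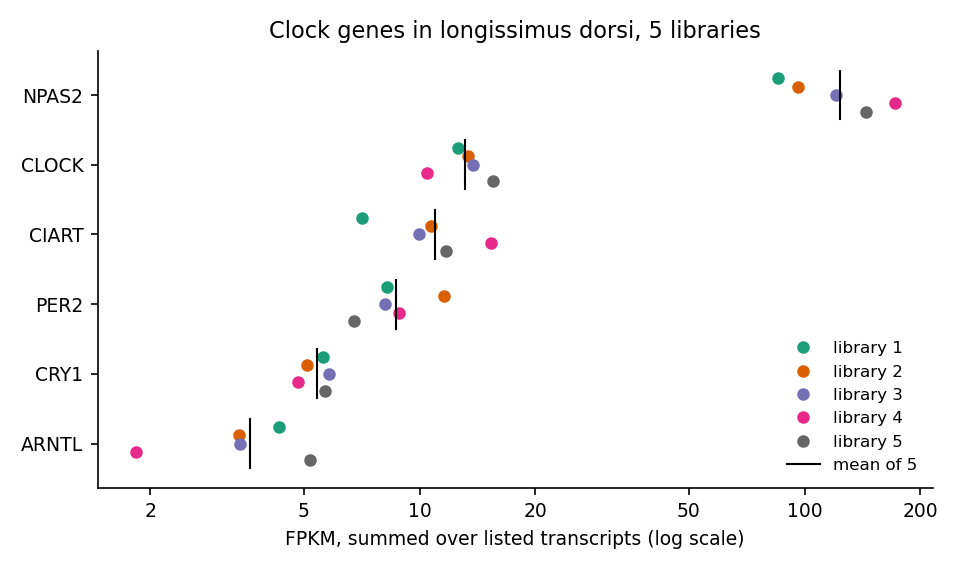
FPKM of each clock gene (horizontal log axis) in the 5 libraries (coloured points), with the mean as a vertical line. NPAS2 lies between 85.1 and 171 FPKM, apart from the other 5 genes, which lie between 1.83 and 15.5 FPKM.

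Among the activators, ARNTL, the partner that both CLOCK and NPAS2 need, was the least abundant of the 6 genes. The gene, ENSBTAG00000013029, lay on chromosome 15 from 39286444 to 39394387. The FPKM of ARNTL was 4.30, 3.41, 3.42, 1.83 and 5.19 in libraries 1 to 5. Library 4 was low and library 5 high, a 2.83-fold range, while libraries 2 and 3 were nearly equal. In log2(FPKM + 1) the SD of ARNTL was 0.42, above the 0.41 of NPAS2 and the 0.37 of CIART, and 78.7% of detected genes had a smaller one. This rank rested on single libraries. Without library 4 the SD of ARNTL was 0.24, below those of NPAS2 (0.34), PER2 (0.29) and CIART (0.29). Without library 5 it was 0.38, below those of NPAS2 (0.44) and CIART (0.42), and the most abundant ARNTL transcript alone gave 0.30, again below NPAS2 (0.41) and CIART (0.42).

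CLOCK, the other subunit of the classical activator pair, was more even. It lay on chromosome 6 from 70874084 to 70978580 (ENSBTAG00000044044). Its FPKM was 12.6, 13.4, 13.7, 10.4 and 15.5 in libraries 1 to 5. Library 4 was again the lowest and library 5 the highest, but the range was only 1.48-fold. The log2 SD, 0.19, exceeded that of 33.8% of detected genes, and it was 0.12 without library 4.

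NPAS2, which can take the place of CLOCK, showed a different pattern. Its FPKM was 85.1, 95.9, 120.5, 171 and 145 in libraries 1 to 5. Here library 4 was the highest and library 1 the lowest, a 2.01-fold range. The listed level took rank 174 among detected genes, with 97.2% of these below it, against 71.7% for CLOCK.

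Among the repressors, PER2, the period protein that carries CRY into the nucleus, lay on chromosome 3 from 117558885 to 117599971 (ENSBTAG00000001879). Its FPKM was 8.24, 11.6, 8.12, 8.83 and 6.77 in libraries 1 to 5. Library 2 was high and library 5 low, and the other 3 were close together. The log2 SD was 0.25, equal to the median of detected genes, and 0.14 without library 2.

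CRY1, the cryptochrome that represses the activator pair directly, was the most even of the 6. The gene lay on chromosome 5 from 70260351 to 70355222 (ENSBTAG00000010149). Its FPKM was 5.61, 5.11, 5.83, 4.82 and 5.67 in libraries 1 to 5. No library stood apart, the range was 1.21-fold, and the log2 SD of 0.10 exceeded that of only 5.83% of detected genes.

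CIART, also on chromosome 3, from 20357248 to 20360783 (ENSBTAG00000021487), was more variable. Its FPKM was 7.08, 10.7, 9.95, 15.3 and 11.7 in libraries 1 to 5. Library 1 was low and library 4 high, a 2.16-fold range, and the log2 SD of 0.37 exceeded that of 72.6% of detected genes.

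A range of at least 2-fold was thus reached by ARNTL, NPAS2 and CIART, 3 of 6 genes, where 34.7% of detected genes reached it. NPAS2 and CIART were lowest in library 1 and highest in library 4, which also had the lowest and highest summed FPKM, 193706 and 223251. After rescaling to the mean summed FPKM, the log2 SD was 0.35 for NPAS2, 0.31 for CIART and 0.46 for ARNTL. With median-ratio size factors it was 0.41, 0.38 and 0.42. The 2-fold count was not repeated under these settings. The median log2 SD of the 6 was 0.31, against 0.25 over all detected genes. No member had a library set apart by a gap ratio above 0.71, Dixon's limit for 5 samples, which 7.37% of detected genes exceeded.

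**Figure D2:**
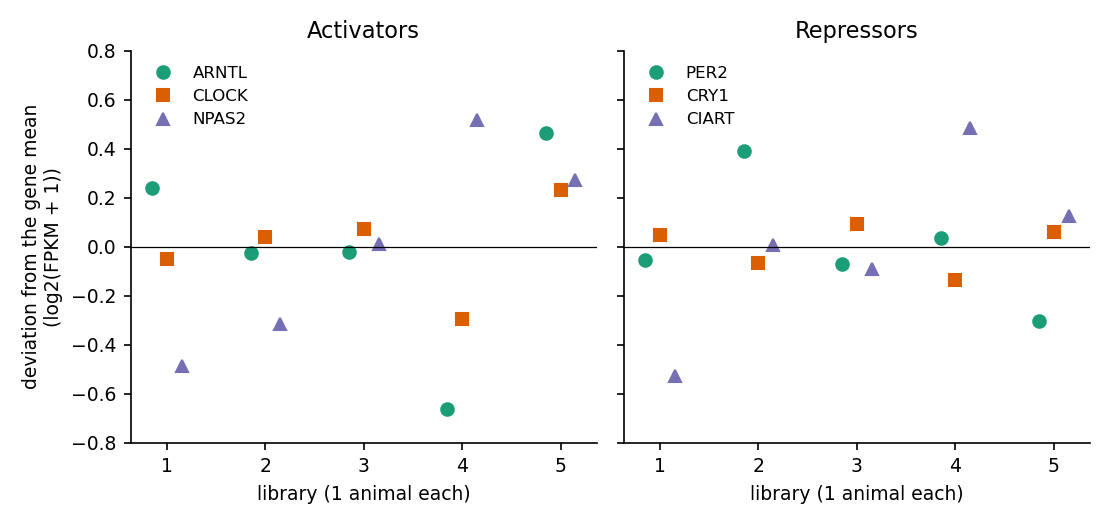
Deviation of each clock gene from its own mean over the 5 libraries, in log2(FPKM + 1), for the activators (left) and repressors (right); each column of points is 1 animal. In library 4 ARNTL and CLOCK lie below 0, at -0.66 and -0.29, while NPAS2 and CIART lie above it, at 0.52 and 0.48.

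Library 4 separated the genes most clearly. ARNTL, CLOCK and CRY1 were at their lowest there, 3 of 6 genes, where 23.4% of detected genes had their lowest value. NPAS2 and CIART were at their highest there, 2 of 6, against 25.3% of detected genes. Library 5 held the highest value of ARNTL and CLOCK (17.2% of detected genes) and the lowest of PER2 (15.4%). The combination of lowest in library 4 and highest in library 5, seen for ARNTL and CLOCK, occurred in 3.8% of detected genes. Each of these counts rests on a single library, and they are given as a description.

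The ranges of ARNTL and CIART ran against each other in libraries 1 and 4. In library 1 ARNTL deviated by 0.24 and CIART by -0.53, and in library 4 by -0.66 and 0.48, on the log2 scale. In library 5 both lay above their means, by 0.47 and 0.13. ARNTL and PER2 lay on opposite sides of their means in 4 of 5 libraries, as did CRY1 and CIART, and PER2 and CRY1 did so in 5 of 5. ARNTL and CRY1 lay on the same side in 4 of 5, as did PER2 and CIART. Several of these sides rest on small deviations, such as -0.03 for ARNTL in library 2 and 0.04 for PER2 in library 4. The largest deviation of CRY1 was -0.14, in library 4. No share over all pairs of genes was computed, so these counts are a description only. With 5 animals no correlation between genes was computed.

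The order of levels was tested within libraries, as the difference of log2(FPKM + 1) between 2 genes of the same animal, by flipping signs in all possible ways (a two-sided exact permutation test). Of the 15 pairs of clock genes, 13 pointed the same way in 5 of 5 animals. For each of these the exact p was 0.0625, the smallest that 5 animals allow, and 0.0764 after Benjamini-Hochberg adjustment over the 22 pairs tested, so no pair could reach 0.05. The pairs share their genes and are not independent. The 13 include every pair with NPAS2, whose value carries the reservation set out further on. No share over all pairs of genes was computed for this count either, so it is a description only.

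Neighbours in this order separated to different degrees. CLOCK exceeded CIART in 4 of 5 animals, by 0.27 ± 0.47 on the log2 scale, with CIART higher in library 4 (exact permutation p = 0.3125, adjusted 0.327, n = 5). This difference was 0.04 ± 0.52 with the most abundant transcript of each alone (exact permutation p = 0.875, n = 5). CIART and PER2 did not separate as summed over transcripts. PER2 was higher in libraries 1 and 2 and lower in the other 3, with a mean difference of PER2 over CIART of -0.28 ± 0.44 (exact permutation p = 0.3125, adjusted 0.327, n = 5). With the most abundant transcript of each alone, PER2 lay below CIART in 5 of 5 animals, by -0.74 ± 0.39 (exact permutation p = 0.0625, n = 5). PER2 exceeded CRY1 in 5 of 5 animals, by 0.58 ± 0.32 or 1.50-fold. This step depended on adding transcripts: with only the most abundant listed transcript of each gene the difference was -0.05 ± 0.29. CRY1 exceeded ARNTL in 5 of 5 animals, by 1.43-fold (ARNTL over CRY1 -0.51 ± 0.35), although their ranges overlapped because ARNTL reached 5.19 FPKM in library 5.

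Within the activator pair, CLOCK exceeded ARNTL 3.13-fold in 5 of 5 animals (ARNTL over CLOCK -1.65 ± 0.27 on the log2 scale, SD, n = 5). Listed NPAS2 exceeded CLOCK 8.59-fold and ARNTL 26.9-fold, also in 5 of 5 animals. These folds come from log2(FPKM + 1) and understate the ratio for low genes. ARNTL and NPAS2 each lacked 2 transcript numbers below the highest listed one, so that their sums may be partial, and the other 4 genes had no such gap.

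The balance of the activator and repressor levels turned on NPAS2. The mean log2 level of the 3 activators less that of the 3 repressors was 1.22, 0.92, 1.18, 0.86 and 1.50 in libraries 1 to 5, a mean of 1.14 ± 0.26 (SD, n = 5). With ARNTL and CLOCK alone as activators, an alternative chosen after seeing the data, it was 0.10, -0.28, -0.12, -0.78 and 0.22, a mean of -0.17 ± 0.39. Library 4 was the lowest and library 5 the highest in either form. The place of library 5 depended on adding transcripts. With the most abundant transcript of each gene alone, the 3 activators less the 3 repressors gave 1.22, 1.09, 1.23, 0.85 and 1.22 in libraries 1 to 5. Library 4 was again the lowest, but library 3 was then the highest.

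The listed transcripts showed which forms carried these levels. The ARNTL value was made of ARNTL-204, which covered a 107 kb interval, and ARNTL-202, which covered 32.0 kb at 1 end of it. ARNTL-204 was at 2.60, 2.73, 2.88, 1.33 and 2.53 FPKM in libraries 1 to 5, so that 4 libraries were close together and library 4 stood apart. ARNTL-202 was at 1.71, 0.679, 0.540, 0.502 and 2.66 FPKM, high in libraries 1 and 5 and low in the other 3. The low ARNTL of library 4 was thus seen mainly in ARNTL-204, and the high ARNTL of libraries 1 and 5 in ARNTL-202, whose share of the gene ran from 15.8% in library 3 to 51.3% in library 5.

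PER2 was listed with 3 transcripts. PER2-203 carried 61.1% ± 10.8 of the gene (SD, n = 5), with 4.03, 6.68, 4.78, 5.45 and 5.31 FPKM in libraries 1 to 5. PER2-202 was at 2.86, 3.99, 3.25, 2.94 and 1.01 FPKM, lowest in library 5, the library in which the whole gene was lowest. PER2-201 reached at most 1.36 FPKM. In library 5 PER2-203 was not low, so the low PER2 of that library lay in PER2-202.

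The other genes were carried by 1 main form. CLOCK-201 held 73.6% ± 4.18 of CLOCK and CIART-202 held 87.4% ± 7.49 of CIART (SD, n = 5). CIART-202 ran from 5.96 FPKM in library 1 up to 14.4 in library 4, while CIART-201 ran from 0.659 to 2.56 FPKM and was highest in library 2. CRY1 had the single transcript CRY1-201. NPAS2-204 held 98.9% ± 0.395 of NPAS2, and NPAS2-203 ran from 0.722 to 2.17 FPKM. Transcripts of 1 gene share reads, and how the authors' program divided them was not given in the sources used here.

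**Figure D3:**
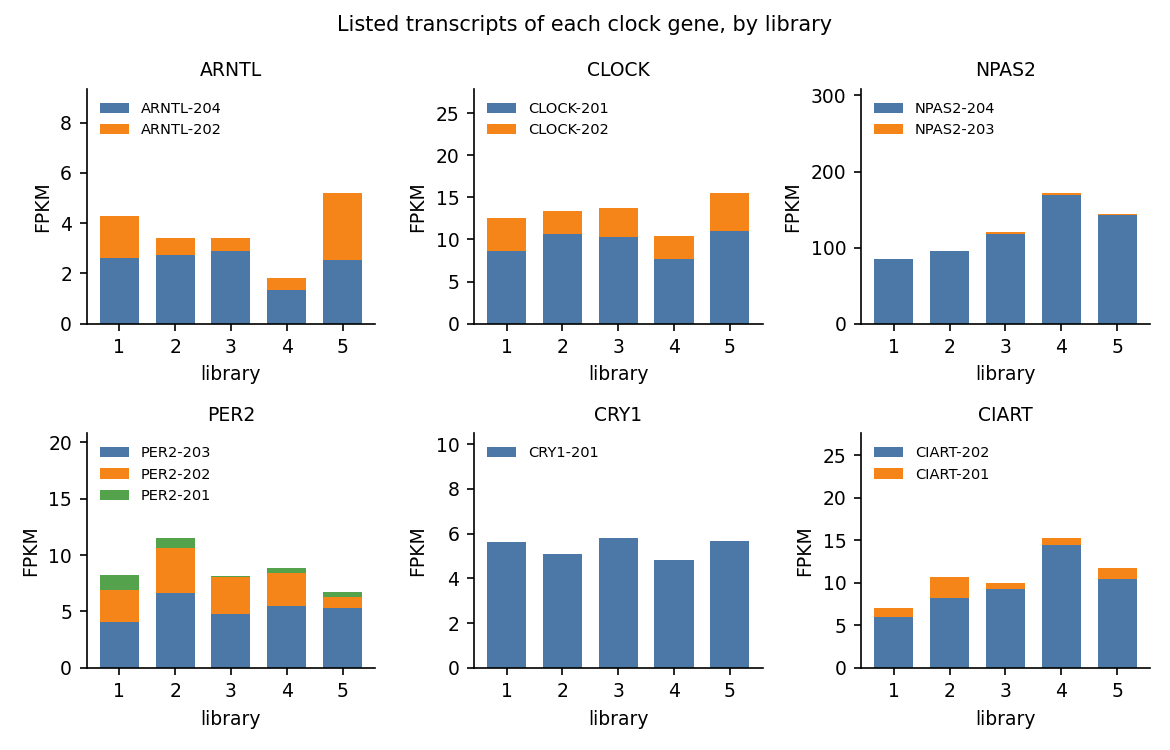
FPKM of each listed transcript (stacked bars) of the 6 clock genes in libraries 1 to 5; each panel has its own vertical axis starting at 0. ARNTL-202 makes up 51.3% of ARNTL in library 5 and 15.8% in library 3, and NPAS2-204 makes up nearly all of NPAS2.

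The listed NPAS2 value needs a reservation about its position. ENSBTAG00000019697 lay on chromosome 11 from 5956504 to 5977543, an interval of 21.0 kb, which is 10.6% of the length of NPAS2 in the RefSeq gene table of the assembly ARS-UCD2.0. For the other 5 genes the listed interval was between 93.8% and 101% of the RefSeq length. In the RefSeq order RPL31, which encodes a protein of the large ribosomal subunit, lies between NPAS2 and TBC1D8. The listed NPAS2 interval ended 1130 bases before the listed start of TBC1D8, so it reached into the stretch where that order places RPL31. RPL31 itself was not analysed here, and reads of NPAS2 and RPL31 cannot be told apart in this value. No other listed gene overlapped any of the 6.

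The NPAS2 profile was close to those of ribosomal protein genes. The 3 genes with a symbol nearest to it over the 5 libraries were RPS15A, U2AF1 and RPL30, of which RPS15A and RPL30 encode ribosomal proteins and U2AF1 a splicing factor. Nearness is the root mean square difference of the deviations from each gene's mean, in log2(FPKM + 1), and was 0.03, 0.04 and 0.05 for these 3. RPS15A was at 226, 251, 312, 441 and 359 FPKM in libraries 1 to 5, with the same order of libraries as NPAS2. Of the 50 genes nearest to NPAS2, 11 (22%) encoded cytosolic ribosomal proteins, a set chosen after seeing the data, while such genes were 42 of the 3219 candidates (1.30%). For CIART the count was 4 of 50 (8%), where such genes were 43 of the 3595 candidates (1.20%), so the excess was not confined to NPAS2. It was 0 for ARNTL, CLOCK, PER2 and CRY1, where such genes were between 0.838% and 1.34% of candidates.

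The ribosomal protein genes had their median deviations in the same order of libraries as NPAS2. The median deviation of the 45 detected ones was -0.37, -0.23, -0.03, 0.51 and 0.17 in libraries 1 to 5, beside -0.49, -0.31, 0.01, 0.52 and 0.27 for NPAS2. Library 4 held the highest value for 37 of the 45 (82.2%), against 25.3% of detected genes. Gene by gene, 9 of the 45 lay on the same side of their mean as NPAS2 in all 5 libraries, a larger share than the 9.08% of detected genes. In library 3 these sides rest on small deviations, 0.01 for NPAS2 beside the ribosomal median of -0.03. The listed NPAS2 level of 124 FPKM lay within their range of means, 2.16 to 754 FPKM, above 20 of the 45. The NPAS2 values are therefore given as listed, and no level of NPAS2 mRNA alone is drawn from them.

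**Figure D4:**
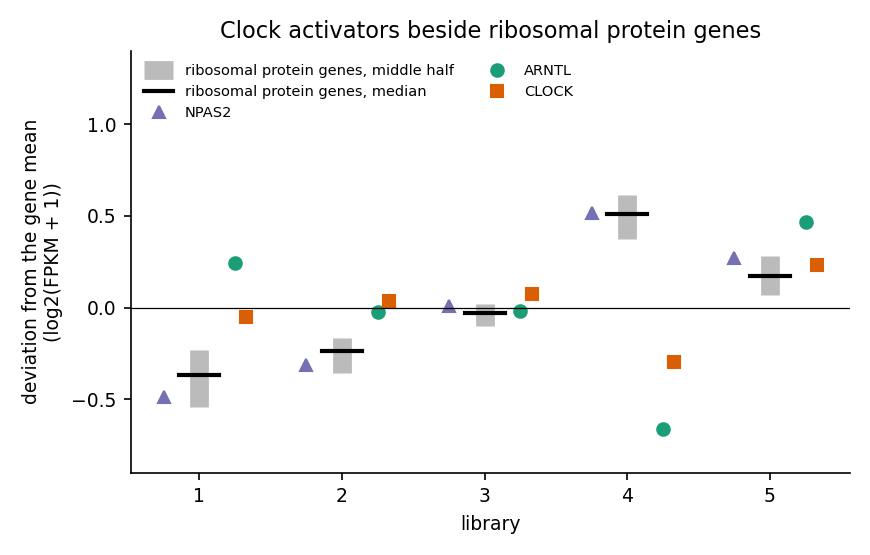
Deviation from the gene mean, in log2(FPKM + 1), by library: the middle 50% (grey bars) and median (black lines) of 45 ribosomal protein genes, with NPAS2, ARNTL and CLOCK as points. NPAS2 lies near the ribosomal median in each library, at 0.52 beside 0.51 in library 4, where ARNTL and CLOCK lie at -0.66 and -0.29.

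The same measure of nearness gave these neighbours for the other genes, as descriptions over 5 libraries. The nearest to ARNTL were ASNSD1, TMEM131L and MCF2L, at distances of 0.08, 0.11 and 0.12 log2 units. ASNSD1 averaged only 1.17 FPKM, with 0.304 in library 4. With 0.1 in place of 1 added to the FPKM, 1 of these 3 remained among the 10 genes of smallest distance. CLOCK lay nearest to NFIA, RBFOX1 and PARD3, each at 0.03 or 0.04. NFIA, a transcription factor gene, was at 16.9, 17.3, 17.9, 13.3 and 19.4 FPKM in libraries 1 to 5, low in library 4 and high in library 5 as CLOCK was. PER2 lay nearest to C4H7orf57, ZNF557 and CELF2, and NF1 and C14H8orf76 were among the 3 nearest to CRY1. C4H7orf57 and ZNF557 averaged 1.31 and 1.12 FPKM, near the detection limit. Nearest to CIART were ATP6V0B, SH3BGR and PRDX1, at 0.03, 0.04 and 0.05. PRDX1, whose product removes peroxides, ranged from 40.6 FPKM in library 1 up to 90.5 in library 4.

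Genes with the mirror image of a member's profile were found in the same way. Nearest to the mirror image of ARNTL were CR2, PGK1 and DUSP13. PGK1, an enzyme of glycolysis, was at 147, 181, 201, 264 and 141 FPKM in libraries 1 to 5, highest in library 4 and lowest in library 5. The mirror genes were COL5A3, SCPEP1 and RUFY3 for CLOCK, CC2D1A, B3GALNT2 and COG6 for PER2, and MSH3, ARHGAP26 and GSN for CRY1. They were NOTCH1, KLHL6 and AHCYL1 for CIART and OGT, RCOR3 and GPAM for NPAS2. These names depended on single libraries: without library 4 none of the 3 nearest to ARNTL or CLOCK remained among the 10 of smallest distance. For NPAS2 at least 2 of the 3 nearest remained there in every alternative run. Its mirror genes were less stable: at most 2 of the 3 remained in any alternative run, and 0 without library 4.

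Among the members themselves, CLOCK and CRY1 had the closest profiles, at 0.12 log2 units, which also reflects that both varied little. NPAS2 and CIART followed at 0.17, and ARNTL and CLOCK stood at 0.24. ARNTL and CIART differed by 0.64 as they stood and by 0.31 with the sign of 1 turned.

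Of 15 further genes of the clock loops, 4 were listed, among them RORA, NR1D1 and TEF. Others, such as PER1, PER3, CRY2, NR1D2 and DBP, were not analysed here. RORA, the nuclear receptor that switches ARNTL on, was at 7.45, 17.2, 6.18, 7.64 and 25.5 FPKM in libraries 1 to 5. It was high in libraries 2 and 5 and low in the other 3, a 4.13-fold range, and its log2 SD of 0.82 exceeded that of 94.0% of detected genes. RORA was above ARNTL in 5 of 5 animals, by 2.68-fold (ARNTL over RORA -1.42 ± 0.70 on the log2 scale, SD, n = 5).

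NR1D1, which encodes REV-ERB alpha, the receptor that switches ARNTL off, was listed at 0.359 ± 0.0915 FPKM (SD, n = 5). Its highest values were 0.465 and 0.454 FPKM in libraries 1 and 5, and the other 3 lay between 0.286 and 0.297, so that it was higher in the libraries with the higher ARNTL. TEF, an output factor of the clock that binds D-boxes, was listed at 0.308 ± 0.227 FPKM (SD, n = 5). At levels under 1 FPKM and with depth unknown, such differences may not exceed counting error.

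**Figure D5:**
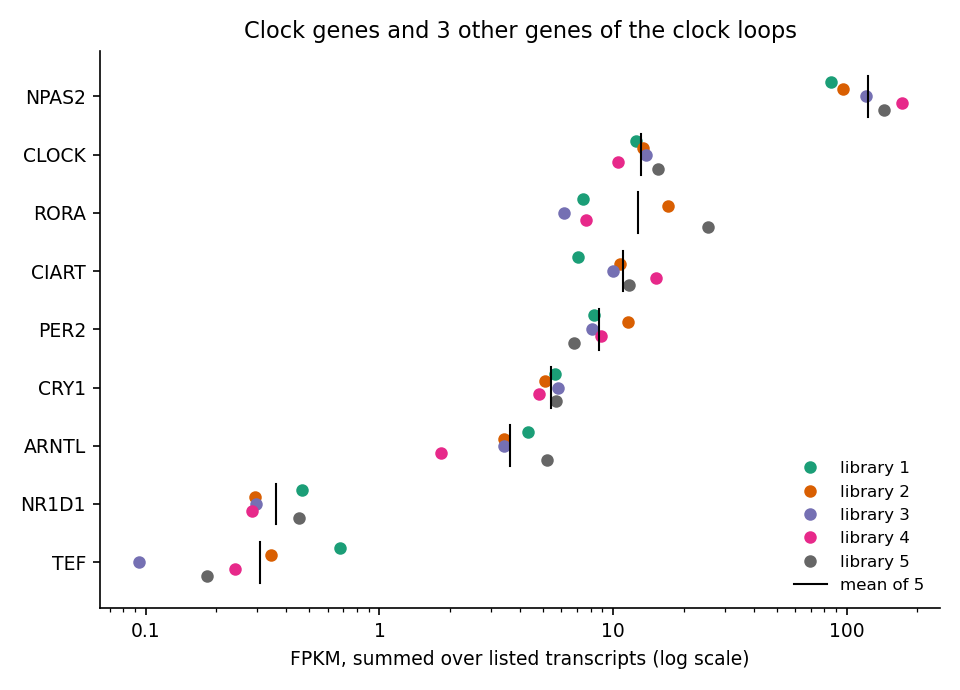
FPKM (horizontal log axis) of the 6 clock genes and of RORA, NR1D1 and TEF in the 5 libraries (points), with the mean as a line. RORA spreads from 6.18 to 25.5 FPKM, while NR1D1 and TEF lie under 1 FPKM in all libraries.

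Genes that modify and degrade the clock proteins were mostly abundant and even. Of 21 on this list 13 were listed and 11 detected, with a median log2 SD of 0.17, against 0.25 over detected genes. Library 4 held the lowest value for 3 of the 11, near the 23.4% of all detected genes. CSNK1D and CSNK1E encode the kinases that mark PER proteins for destruction. They averaged 5.54 ± 1.78 and 3.23 ± 1.35 FPKM and lay below PER2 in 5 of 5 animals, by 1.51-fold and 2.37-fold. With the most abundant transcripts alone, PER2 over CSNK1D became -0.04 ± 0.39. Both kinases had gaps in the numbering of their transcripts, so that their sums may be partial.

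The casein kinase gene CSNK1A1 averaged 57.6 ± 2.06 FPKM, and only 0.847% of detected genes had a smaller log2 SD. SKP1, a subunit of the ubiquitin ligases that act on PER and CRY, averaged 126 ± 17.3 FPKM. OGT, which attaches sugar to clock and many other proteins, averaged 46.2 ± 9.93 FPKM, at 56.3 in libraries 1 and 2 and 34.7 in library 4. It was the nearest gene to the mirror image of NPAS2, at 0.10 log2 units, but was not among the 10 of smallest distance without library 4.

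Cofactors of the loop were likewise even, with 12 of 22 listed, 10 detected and a median log2 SD of 0.17. Of the 10, 1 was lowest in library 4, against 23.4% of detected genes. That 1 was NCOR1, the corepressor used by REV-ERB, at 12.9 FPKM in library 4 and between 15.3 and 16.4 in the others. TBL1XR1, part of the same corepressor complex, averaged 44.1 ± 3.73 FPKM, and NONO, an RNA-binding partner of PER proteins, 22.6 ± 1.63 (SD, n = 5). TIPIN, the partner of TIMELESS, was among the 2 of greatest log2 SD on the list and ran from 0.235 FPKM in library 2 to 4.26 in library 4.

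Relatives of CLOCK and ARNTL with the same bHLH-PAS fold, and the related coactivators, were listed for 8 of 15 genes, 6 of them detected. Of those 6, 3 had their lowest value in library 4, against 23.4% of detected genes. ARNT, the general dimer partner of this family, averaged 12.5 ± 1.75 FPKM and did not separate from CLOCK, which was higher in 3 of 5 animals (0.06 ± 0.14, exact permutation p = 0.375, adjusted 0.375, n = 5). NPAS3 was listed at 0 in 3 libraries and reached at most 0.426 FPKM, and SIM2 was listed at 0 in all 5. For the coactivator gene NCOA1, library 4 gave 3.19 FPKM and the others between 8.76 and 11.6. NCOA3, another coactivator, averaged 10.1 ± 1.52 FPKM, and NCOA2 ran from 1.17 in library 3 to 8.08 in library 1.

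Known outputs of the muscle clock had a median log2 SD of 0.41, beside 0.31 for the 6 clock genes, a difference that was not tested. Of 26 on the list 16 were listed and 14 detected. Library 4 held the lowest value for 2 of the 14, against 23.4% of detected genes. TCAP, a Z-disc protein gene under clock control, averaged 2823 ± 586 FPKM, with its lowest value of 2281 in library 5 and its highest of 3664 in library 4. PDK4, which holds back glucose oxidation, was at 56.1, 138, 347, 79.0 and 231 FPKM in libraries 1 to 5, high in libraries 3 and 5 and low in libraries 1 and 4. TFRC, the transferrin receptor, ran from 108 FPKM in library 1 to 186 in library 4, and PPARGC1A, a regulator of mitochondrial genes, from 0.316 in library 5 to 3.48 in library 1. These genes did not share 1 order of the libraries.

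Genes that answer to glucocorticoids and temperature, signals that also set the clock, differed between animals as well. Of 13 glucocorticoid-responsive genes 6 were listed and 5 detected, with a median log2 SD of 0.49. Library 4 held the lowest value for 3 of the 5, against 23.4% of detected genes. For TSC22D3, library 1 gave 56.5 FPKM and the others between 17.5 and 27.7, and SGK1 stood at 36.0 in library 1 and between 13.7 and 21.3 in the others. KLF9, by contrast, averaged 51.9 ± 4.56 FPKM, and SESN1 averaged 1.55 ± 0.863 (SD, n = 5).

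Of 10 cold and heat responsive genes 7 were listed and 6 detected, with a median log2 SD of 0.41. Library 4 held the lowest value for 1 of the 6, against 23.4% of detected genes. HSPA1A, an inducible chaperone, was at 130, 313, 164, 401 and 201 FPKM in libraries 1 to 5, highest in library 4. HSPB1, a small heat shock protein of muscle, ran from 399 to 817 FPKM. RBM3, a cold-induced RNA-binding protein, was highest in library 4, at 51.3 FPKM, and HSF2 stood at 9.30 in library 3 and at most 4.35 in the others. The part of these responses in the clock gene values was not tested.

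Fibre genes were abundant, as the tissue label requires, and markers of other cells stood at lower levels. The 7 listed of 8 fibre markers summed to between 20641 and 25334 FPKM, led by ACTA1, TPM2 and TNNC1. The 8 endothelial markers summed to between 109 FPKM in library 2 and 124 in library 5, none was listed at 0, and CDH5 averaged 27.9 ± 3.09 and EGFL7 25.5 ± 2.51 (SD, n = 5). Of the 7 detected endothelial markers, CDH5, TEK and TIE1, named after their values were seen, were lowest in library 4 and highest in library 5 as ARNTL and CLOCK were, a combination held by 3.8% of detected genes. The other 4 did not hold this combination: EGFL7 and EMCN were highest in library 1 and above their means in library 4. PECAM1 and KDR were highest in library 3. KDR was also lowest in library 4, at 11.7 FPKM, so that 4 of the 7 were lowest there, against 23.4% of detected genes.

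Other cells differed more between animals. The 3 listed of 6 matrix markers, led by COL3A1, summed to 845 FPKM in library 1 and 394 in library 2. The 5 listed of 6 smooth muscle and pericyte markers, led by ACTA2 and TAGLN, summed to 88.7 in library 1 and 36.5 in library 5. The 2 listed leukocyte markers, PTPRC and CD3E, summed to between 1.77 and 3.97 FPKM. Of 6 adipocyte markers only CIDEC was listed, with at most 0.809 FPKM and 0 in library 5. The part of these cells in the clock gene values was not tested, and in whole muscle fewer cells of a type and less RNA per cell cannot be told apart.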

How the data were processed

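Total RNA of 5 muscles was sequenced, 1 library each. The authors deposited FPKM for each transcript in each library, per the file headers. The submitters' processing notes name HTSeq 0.6.0, DESeq2 1.10.1 and the genome build UMD3.1, with no roles. Which aligner, FPKM program and annotation were used is not given in the sources used here. Of 7403 genes matched by symbol, 7389 (99.8%) overlapped their RefSeq position in ARS-UCD2.0, the 6 clock genes among them, so coordinates are printed as listed and no build is claimed.

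Transcript FPKM were summed per gene identifier. Values were analysed as log2(FPKM + 1), and genes were called detected at a mean of 1 FPKM or more, in Python 3.11.15 with numpy 2.4.6, pandas 2.3.3 and matplotlib 3.10.9. No counts were used, so depth is unknown and no counting interval was computed; summed FPKM per library ran from 193706 to 223251. Of 30 pairs planned, 22 had both genes listed and entered the exact sign-flip test. Neighbours were sought among detected genes with a symbol and a log2 SD of at least 0.5 times the member's.

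The 6 genes, the 15 gene lists (98 of 167 symbols listed), the pairs and the naming rule were chosen with earlier results of these data known. The rule named the members, all listed loop genes, both genes of each pair, the 3 nearest and 3 mirror genes of each member, and in each other list the 3 genes of highest mean and 2 of greatest SD. Genes named besides these, such as TEK and TIE1, were chosen after their values were seen, as was the ribosomal protein set. Some genes that the rule names are not reported here. Alternatives were a pseudocount of 0.1, rescaling to the mean summed FPKM, median-ratio size factors, the most abundant transcript alone, other detection limits, scaled deviations and leaving out each library. Scripts were tested on simulated data. No sequence is printed, since none was provided for these genes.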

Additional observations from a re-analysis of the deposited data

Results flagged for a closer look

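Among 90 named genes, 4 had a library set apart by more than Dixon's limit of 0.71, and so did 2 of the 12 transcripts of the clock genes. Of all detected genes, 7.37% passed this limit, and chance flags about 1 group in 20. That share is for genes, and none was computed over all transcripts, so the 2 of 12 has no share to be set against. The gap ratio was 0.812 for ARNTL-204 and 0.717 for PER2-202, the second only just past the limit. ARNTL-204 was at 1.33 FPKM in library 4, below 2.53 to 2.88 in the others. PER2-202 was at 1.01 FPKM in library 5, below 2.86 to 3.99 in the others. The corepressor gene NCOR1 was at 12.9 FPKM in library 4, against 15.3 to 16.4, and the coactivator gene NCOA1 at 3.19 in library 4, against 8.76 to 11.6. CELF2, a neighbour of PER2, was at 8.90 FPKM in library 2, against 5.01 to 5.90. The smooth muscle gene MYH11 was at 7.82 FPKM in library 1, against 0.353 to 0.821.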

How the results depend on the processing

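The 22 pair differences kept their direction under a pseudocount of 0.1, rescaling, size factors and the omission of each library in turn. With the most abundant transcript alone, PER2 over CRY1 became -0.047 and PER2 over CSNK1D -0.035, since PER2 is spread over 3 transcripts. The other 20 kept their direction. Of these, CLOCK over CIART fell from 0.27 to 0.04, and PER2 over CIART moved from -0.28 to -0.74, then below 0 in 5 of 5 libraries. The pairs with 1 direction in every library numbered 18, between 17 and 18 under the other settings and between 18 and 20 with 1 library left out. No setting could bring a pair past 0.05. The activator less repressor level, 1.14, ran from 1.05 to 1.20 with 1 library left out. Without NPAS2, a setting added after seeing the data, it was -0.17, with -0.28 in library 2, -0.12 in library 3 and -0.78 in library 4. The shares of detected genes below each member moved with the detection limit by construction, for CLOCK from 51.4% at a limit of 5 FPKM to 80.8% with none; ARNTL, under 5 FPKM, had no value there. The log2 SD of ARNTL was 0.55 with a pseudocount of 0.1 and 0.30 for its most abundant transcript, and that of CRY1 was 0.14 after rescaling; the cause was not tested. No paired analysis was possible because there was 1 group, with no second group to pair it with; the gene pairs were compared within animals. Read depth is unknown, which limits what can be said of genes under 1 FPKM.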

Other observations

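Further genes of the clock lists, chosen after their values were seen, ranged widely in level. Among genes that degrade or stabilise clock proteins, the ubiquitin protease gene USP7 averaged 33.4 ± 2.31 FPKM, the ligase scaffold gene CUL1 28.0 ± 2.64, the kinase gene GSK3B 19.6 ± 1.78 and the F-box genes FBXW11 and BTRC 15.2 ± 1.83 and 8.81 ± 1.12 (SD, n = 5). Their ranges between libraries ran from 1.18-fold for USP7 to 1.31-fold for FBXW11 and BTRC. Among cofactors, KDM5A, which opens chromatin with CLOCK, averaged 14.3 ± 1.09 FPKM, the deacetylase gene HDAC3 8.96 ± 1.47 and CREB1, which carries resetting signals to the PER genes, 5.77 ± 0.488. HUWE1, PPP1CB and WDR5 were listed under 1 FPKM.

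Metabolic and growth outputs went different ways. LPL, which takes up fatty acids, was at 59.5, 38.9, 62.7, 64.4 and 32.9 FPKM in libraries 1 to 5, low in libraries 2 and 5. The atrophy ligase gene FBXO32 was lowest in library 3, at 13.5 FPKM, and highest in library 2, at 37.1. The myogenic factor gene MYF6 ran from 2.75 FPKM in library 4 to 6.48 in library 1, and KLF15, which links glucocorticoids to amino acid use, from 5.13 in library 5 to 8.23 in library 2.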
